A study of Mus musculus with 2 samples.

Results

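The Hox genes encode homeodomain transcription factors and lie in 4 clusters, Hoxa on chromosome 6, Hoxb on chromosome 11, Hoxc on chromosome 15 and Hoxd on chromosome 2 of the mouse. They were taken here as every transcript row whose gene symbol is Hoxa, Hoxb, Hoxc or Hoxd followed by a number. This gave 31 genes in 39 rows, out of 24171 genes measured on the arrays, and where a gene had several rows, the one brightest on average was used. A further 8 of the 39 Hox genes in the RefSeq gene table were not analysed here.

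Hox genes are numbered by their place in the cluster, low numbers acting in the head and neck of the embryo and high numbers in the tail and limbs. They are opened by trithorax proteins such as KMT2A and kept silent by Polycomb proteins, and HOX proteins bind DNA together with PBX and MEIS cofactors. In blood stem cells and progenitors, genes of the Hoxa cluster and some of the Hoxb cluster are known to be active and to be shut off as cells mature, whereas Hoxc and Hoxd genes are better known from the trunk, limbs and nervous system.

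The study set LT-HSCs, the long-term haematopoietic stem cells that sustain blood formation, of cia-cGAS knockout (KO) mice against those of wild-type (WT) mice, with 1 single-colour array per genotype. cia-cGAS is given in the sample labels as a circular RNA, and the question was how expression differs when it is missing. Both genotypes were C57BL/6 mice of 8 weeks, and the cells were flushed from bone marrow and sorted. The sources used here do not give the sort markers, the number of cells, any pooling of animals or the kind of deletion. With 1 array per group, no difference below has a replicate check, none was tested, and all differences describe these 2 samples.

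To tell signal from background, each array was given a detection floor from 1025 rows of genes for taste, vomeronasal and olfactory receptors, genes that blood cells are not known to use. The floor is their 95th percentile, an intensity of 500.4 on the KO array and 552 on the WT array. The same receptor rows had medians of 56.7 in KO and 57.2 in WT. Of 12 LT-HSC markers measured, 6 were above the floor on the KO array and 6 on the WT array, among them Kit, Ly6a, Gata2, Tek and Mecom on both. Hlf passed in KO cells alone and Tal1 in WT cells alone, while Slamf1, Procr, Fgd5 and Ctnnal1 were below both floors. Markers of other marrow cells were present on both arrays and differed between them. Among markers above a floor, those of the monocyte, neutrophil, megakaryocyte, stromal, and T and NK lists did not all go 1 way. The 8 B lineage and 8 erythroid markers above a floor were all lower in KO cells. Klf1 and Epor of the erythroid list, below both floors, read higher in KO cells. The summed intensity of 11 B lineage markers was 3821 in KO and 21261 in WT cells, that of 5 megakaryocyte markers 3800 and 12440, of 10 erythroid markers 83411 and 102664, of 12 neutrophil markers 239629 and 179659, and of 10 monocyte markers 109651 and 81064. For 12 stromal, bone and endothelial markers the sum was 42539 in KO and 49039 in WT cells, with 10 of the 12 above a floor. For 6 T and NK markers it was 3312 and 3207. No marker of these lists was at 0. In sorted cells read in bulk, fewer cells of a type and less RNA per cell cannot be told apart, and the part that other cells had in the Hox values was not tested.

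Most Hox genes were not measured above the floor. Of the 31 genes, 7 were above it on at least 1 array (22.6%), against 44.9% of all genes measured. On the KO array 6 Hox genes were above the floor, with 42.4% of all genes above it, and on the WT array 6, with 40.8% of all genes. The 5 above both floors were Hoxa2, Hoxa4, Hoxa5, Hoxa9 and Hoxd10, while Hoxb4 passed in KO cells alone and Hoxa7 in WT cells alone. Hoxa7 and Hoxd10 had 2 rows each. Hoxa2, Hoxa4, Hoxa5, Hoxa9 and Hoxb4 had 1 row each, of 3 probes, so no other row could be set beside theirs. The Hoxa cluster held 5 of the 7, with 11 of its genes measured, a share close to the 44.9% of all genes. The Hoxb cluster held 1 of 8 measured, the Hoxc cluster 0 of 7 and the Hoxd cluster 1 of 5. By position in the cluster, the genes above a floor were spread along it, with 3 of 8 measured at positions 1 to 4, 2 of 11 at positions 5 to 8 and 2 of 12 at positions 9 to 13.

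**Figure D1:**
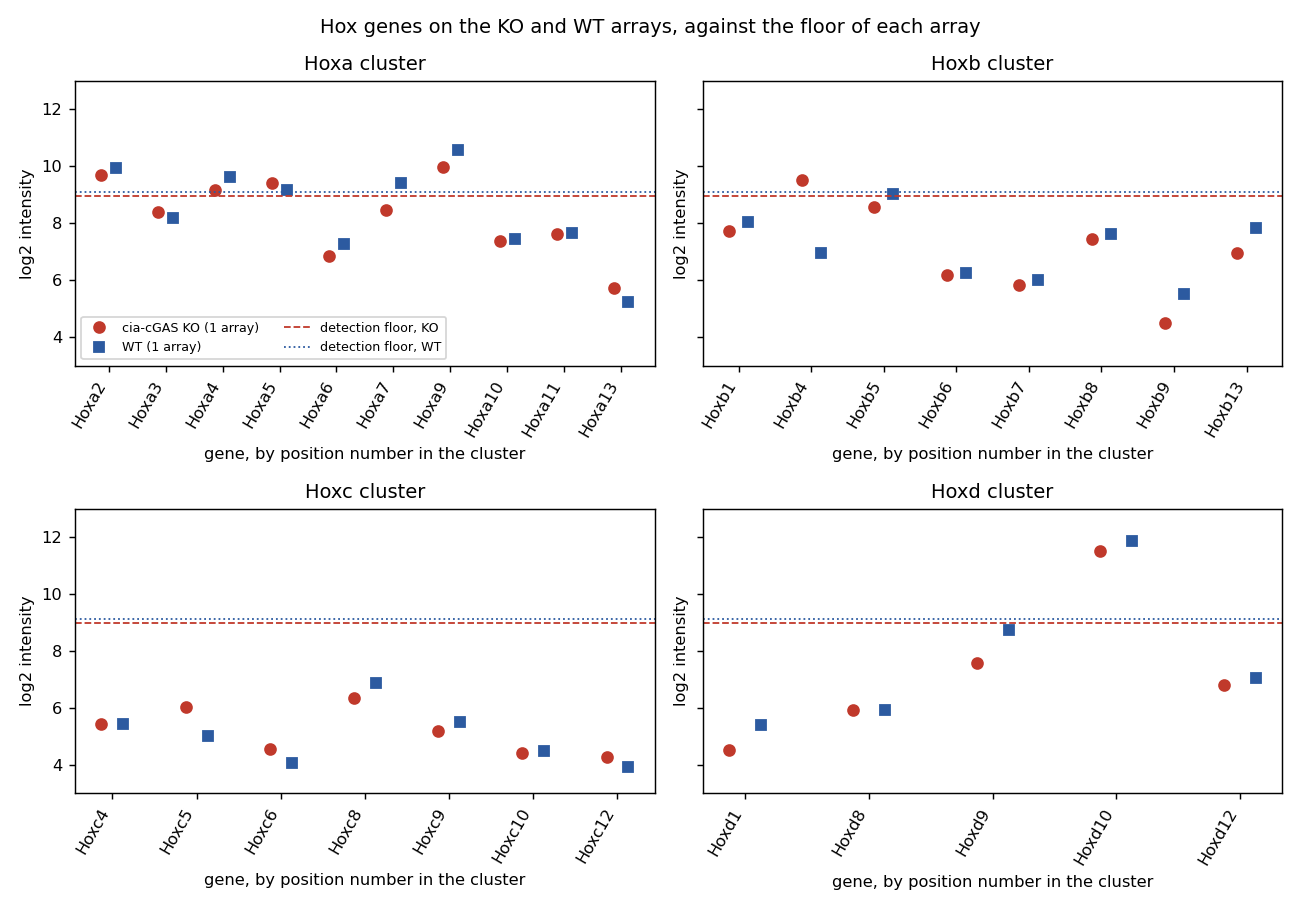
Log2 intensity (vertical axis) of each Hox gene named in the text, in its cluster and in order of position number (horizontal axis), on the KO array (red circles) and on the WT array (blue squares), with the detection floor of each array as a dashed red line (8.97) and a dotted blue line (9.11). Each symbol is 1 array. Most of the genes above the lines belong to the Hoxa cluster, all 7 Hoxc genes lie below them, and Hoxb4 is above the line on the KO array alone.

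In the Hoxa cluster, Hoxa9, which drives the growth of blood progenitors and cooperates with Meis1 in leukaemia, read 1005 in KO and 1527 in WT cells. Of the 1025 receptor rows, 15 were brighter than Hoxa9 in KO and 6 in WT cells. Hoxa9 (gene ID 15405, MM9 chromosome 6 from 52173098 to 52176179) was 1.52-fold lower in KO cells, a log2 difference of -0.60, KO minus WT. This was the most negative difference among the 5 Hox genes above both floors.

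Hoxa5, which affects the choice between myeloid and erythroid fates in human progenitors, was the member of that group with a positive difference. It read 680 in KO and 580 in WT cells, a difference of 0.23 (gene ID 15402, chromosome 6 from 52152288 to 52154410). The WT value was 1.05 times the floor of its array, and 31 receptor rows were brighter in KO and 47 in WT cells, so that Hoxa5 was near the limit of detection on both arrays.

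Hoxa4 and Hoxa2, whose proteins are known from the patterning of the neck and of the hindbrain, were also above both floors. Hoxa4 (gene ID 15401, chromosome 6 from 52140246 to 52141702) read 573 in KO and 792 in WT cells, a difference of -0.47. Hoxa2 (gene ID 15399, chromosome 6 from 52112821 to 52114777) read 824 in KO and 980 in WT cells, a difference of -0.25. Both were lower in KO cells, Hoxa4 1.38-fold and Hoxa2 1.19-fold, and between 18 and 41 receptor rows were brighter than either gene on any array.

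Hoxa7, a neighbour of Hoxa9 that is switched on with it in leukaemias with altered KMT2A, passed the floor in WT cells alone. Its brightest row read 355 in KO and 690 in WT cells, which makes it at least 1.38-fold lower in KO cells when the WT value is set against the KO floor (gene ID 15404, chromosome 6 from 52165675 to 52167436). The other Hoxa7 row, of a transcript from 52165622 to 52170389, read 423 in KO and 383 in WT cells and was below both floors. The rows thus went in opposite directions, with differences of -0.96 and 0.14.

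Hoxa3, Hoxa6, Hoxa10, Hoxa11 and Hoxa13 were below both floors, with intensities of 52.9 to 336 in KO and 37.5 to 293 in WT cells. Hoxa10, which like Hoxa9 is known from blood progenitors, read 167 in KO and 175 in WT cells, where 206 and 216 receptor rows were brighter. At the signal of these arrays, Hoxa10 was therefore within the range of genes that blood cells are not known to use, which does not show that it was silent.

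In the Hoxb cluster, Hoxb4, which expands blood stem cells when it is supplied in excess, read 728 in KO and 125 in WT cells. It was above the floor in KO cells, where 27 receptor rows were brighter, and well inside the receptor range in WT cells, where 293 were brighter. The measured difference was 2.54 on the log2 scale, but as the WT value lies below the floor, Hoxb4 counts as at least 1.32-fold higher in KO cells (gene ID 15412, MM9 chromosome 11 from 96179580 to 96181914). Hoxb4 had 1 row, of 3 probes, so no other row of the gene could be set beside it.

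The remaining 7 Hoxb genes, Hoxb1, Hoxb5, Hoxb6, Hoxb7, Hoxb8, Hoxb9 and Hoxb13, were below both floors, and all 7 had negative differences, from -1.02 to -0.06. No share over all genes below both floors is set beside this count. Hoxb5, a gene used to mark long-term stem cells in mouse marrow, came closest to the floor among all 24 Hox genes below it. It read 380 in KO and 522 in WT cells, where 82 and 55 receptor rows were brighter. Hoxb5 and Hoxa5 are thus the genes just outside and just inside the floor of the WT array, at 522 and 580 against a floor of 552, and Hoxa4 was the member nearest above the KO floor, at 573 against 500.4. Hoxb4, the neighbour of Hoxb5, went the other way, so the differences of the 8 measured Hoxb genes were not all of 1 sign.

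The promoters of 3 genes are shown. Hoxb4 passed the floor in KO cells alone, Hoxa9 had the most negative difference among genes above both floors, and Hoxa2, also above both, had a window with matches to the motifs of both PBX and MEIS cofactors. Each window runs from 250 bases before to 50 bases after the start of the gene, is taken from RefSeq (GRCm38.p6) and is written 5′ to 3′ on the strand of the gene, with motif matches in capitals. The windows are chr11:96318017-96318316 on the plus strand for Hoxb4, chr6:52227321-52227620 on the minus strand for Hoxa9 and chr6:52164782-52165081 on the minus strand for Hoxa2. These coordinates are of another build than the MM9 transcript positions, and whether each window lies at the start of the measured transcript was not checked.
Hoxb4: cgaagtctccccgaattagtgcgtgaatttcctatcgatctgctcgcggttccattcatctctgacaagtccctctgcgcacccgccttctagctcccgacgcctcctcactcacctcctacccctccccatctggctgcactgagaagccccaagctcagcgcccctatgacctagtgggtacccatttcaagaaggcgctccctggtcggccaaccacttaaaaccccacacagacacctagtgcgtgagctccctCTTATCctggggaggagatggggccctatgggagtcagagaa
Hoxa9: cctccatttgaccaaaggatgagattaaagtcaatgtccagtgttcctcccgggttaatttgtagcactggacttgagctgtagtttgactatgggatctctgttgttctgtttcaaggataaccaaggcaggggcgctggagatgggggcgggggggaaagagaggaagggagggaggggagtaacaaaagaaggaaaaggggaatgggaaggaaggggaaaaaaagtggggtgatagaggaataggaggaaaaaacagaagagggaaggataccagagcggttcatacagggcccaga
Hoxa2: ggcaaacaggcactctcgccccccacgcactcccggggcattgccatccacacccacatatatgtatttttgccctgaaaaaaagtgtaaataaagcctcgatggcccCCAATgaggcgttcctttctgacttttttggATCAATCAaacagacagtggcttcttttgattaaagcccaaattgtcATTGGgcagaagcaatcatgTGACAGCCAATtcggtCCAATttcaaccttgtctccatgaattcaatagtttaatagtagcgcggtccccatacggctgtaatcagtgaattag
The search covered both strands of 32851 windows for 8 motifs, and no matches of different motifs overlapped in the Hox windows. There were 19 windows, for 18 of the 31 Hox genes. The CCAAT box (CCAAT) was in 12 of the 19 Hox windows and in 37.4% of all windows, and Hoxa2 holds 4 matches. The motif bound by HOX with PBX (TGATNNAT) was in 3, those of Hoxa2, Hoxb1 and Hoxb8, and in 8.85% of all windows. The MEIS motif (TGACAG) was in 2, of Hoxa2 and Hoxa3, and in 19.2% of all windows. The GATA motif (GATAAG) was in 2, of Hoxb4 and Hoxd8, and in 7.44% of all windows. In Hoxb4 it lies on the opposite strand, 9 bases into the transcribed part. The TATA box (TATAAA) was in 2 Hox windows and in 13.6% of all, and the E-box (CACGTG) in 2 and in 7.15%. The interferon response motif (GAAA, any 2 bases, then GAAA again) was in 0 of the 19 Hox windows and in 3.44% of all windows. The STAT motif (TTCNNNGAA) was likewise in 0 of them and in 8.30% of all windows. These letters were not found in the Hoxa9 window for any of the 8 motifs, and a match or its absence is a description of the sequence.

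In the Hoxc cluster no gene was above a floor. All 7 genes measured, Hoxc4, Hoxc5, Hoxc6, Hoxc8, Hoxc9, Hoxc10 and Hoxc12, fell short of both floors, with intensities of 19.4 to 81.4 in KO and 15.0 to 117 in WT cells. These values lie around the control row of 5000 random-sequence probes, which read 36.9 on both arrays. Hoxc5 had the most positive difference of the genes below both floors, at 64.6 in KO and 32.2 in WT cells, where 467 and 752 receptor rows were brighter. No fold is given for it or for any gene below both floors.

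In the Hoxd cluster, Hoxd10, known from the patterning of the limb and the lower spinal cord, was above both floors with no receptor row brighter on either array. It read 2942 in KO and 3751 in WT cells, 1.27-fold lower in KO cells, a difference of -0.35 (gene ID 15430, MM9 chromosome 2 from 74530026 to 74533160). The other Hoxd10 row, of a transcript from 74530004 to 74532660, read 36.1 in KO and 47.2 in WT cells. That row lies at nearly the same place but below both floors and near the control row of random-sequence probes, which read 36.9 on both arrays, so that detection of Hoxd10 rests on the probes of 1 row and its difference has no other row beside it.

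Hoxd1, Hoxd8, Hoxd9 and Hoxd12 were below both floors. Hoxd9, the gene next to Hoxd10, read 189 in KO and 429 in WT cells, where 191 and 75 receptor rows were brighter. Its difference of -1.18 was the most negative of all 31 Hox genes, though neither value passed its floor.

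No Hox gene reached a 2-fold difference that could be measured. Among the 7 above a floor, 0 were at least 2-fold higher in KO cells, where 5.54% of all 10852 genes above a floor were, and 0 were at least 2-fold lower, where 4.06% of all were. A count of 0 among 7 genes is close to these background shares. Hoxb4 and Hoxa7, above 1 floor each, entered the count by their bounds of 1.32-fold and 1.38-fold. With signal this near the floor neither could be counted as 2-fold, so the count does not show how far they changed. The median difference of the 7 was -0.35, against -0.02 over all genes above a floor. Of the 5 genes above both floors, 4 had a negative and 1 a positive difference, between -0.60 and 0.23. Over all 9238 genes above both floors, 4952 had a negative and 4285 a positive difference, and the 5th and 95th percentiles were -0.93 and 1.04. Each of the 5 Hox differences therefore lay inside the spread of genes at large.

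Rows of the same gene give a measure of error within these arrays, though not between animals. Over 2892 genes with several rows above both floors, differences of rows of 1 gene varied with an SD of 0.37 on the log2 scale, and with an SD of 0.33 over 643 genes of mean level 9 to 10. The differences of Hoxa2 and Hoxa5 were smaller than this SD, that of Hoxd10 was about as large, and those of Hoxa4 and Hoxa9 were larger by less than 1 further SD. The measured difference of Hoxb4, 2.54, was several times as large, but its WT value was below the floor.

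**Figure D2:**
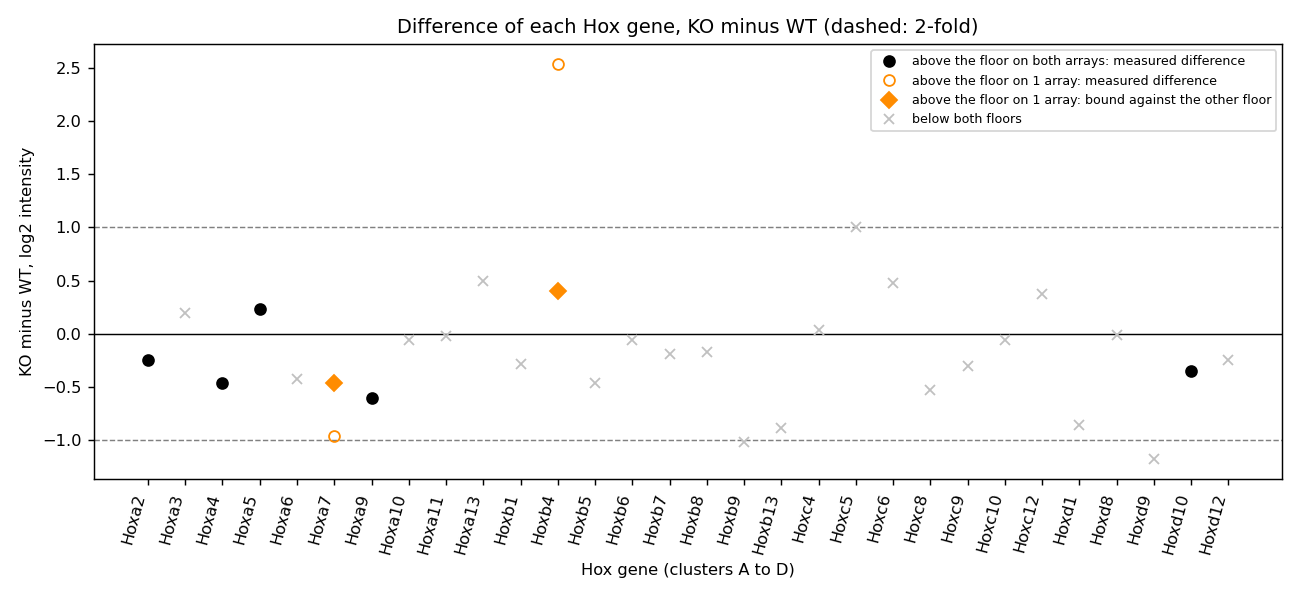
Difference of each Hox gene, KO minus WT on the log2 scale (vertical axis), for the genes named in the text, in cluster order (horizontal axis). Black points are genes above both floors, open orange circles are measured differences of genes above 1 floor, orange diamonds are the same genes with the dim value set to the floor of its array, and grey crosses are genes below both floors. No black point or diamond reaches the dashed lines at 2-fold, and the bound for Hoxb4 lies far under its measured difference of 2.54.

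Among the 24 Hox genes below both floors, 18 had a negative and 6 a positive difference, from -1.18 to 1.004. The same count over all genes below both floors is not given here, so no lean is read from it. Their medians were 68.5 in KO and 69.9 in WT cells, near the receptor medians of 56.7 and 57.2. That they lay in the range of the receptor rows follows from how the floor was set. Rows of 1 gene often went in opposite directions there, as for Hoxa13, whose 3 rows differed by -0.82 to 0.50, and for Hoxb13, whose rows differed by -0.88 and 0.30. The rows of Hoxb1 differed by -0.28 and 0.03, while those of Hoxa3, 0.02 and 0.20, and of Hoxd8, -0.15 and -0.01, had 1 sign.

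**Figure D3:**
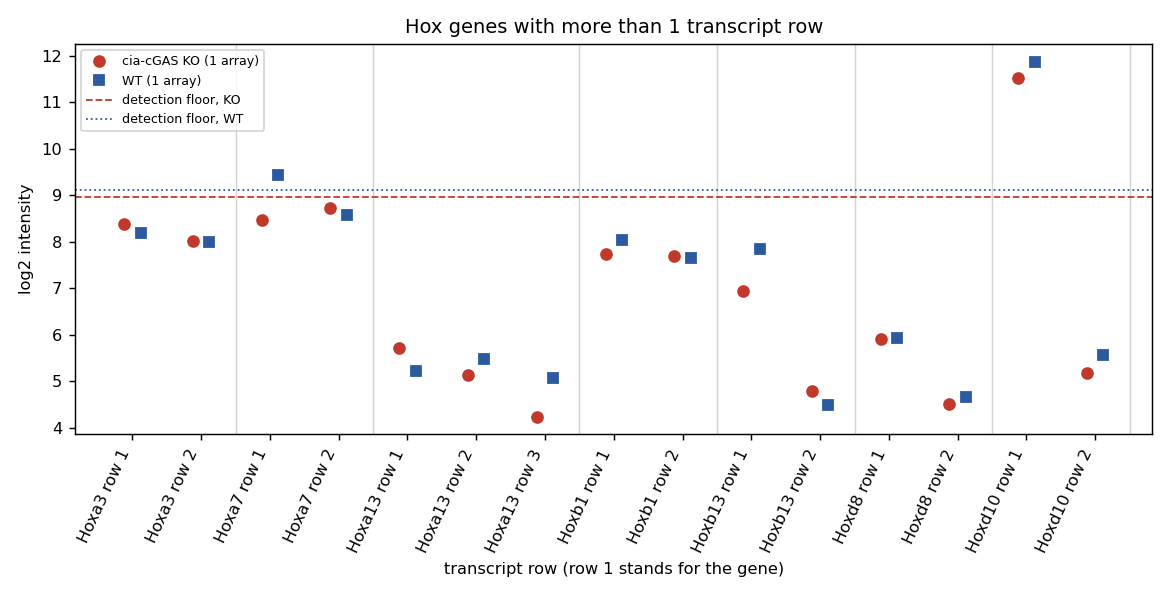
Log2 intensity (vertical axis) of every transcript row of the 7 Hox genes with more than 1 row (horizontal axis, row 1 being the row that stands for the gene), on the KO array (red circles) and the WT array (blue squares), with the floors as lines. The first Hoxd10 row is far above the floors and the other far below them, and the first Hoxa7 row passes the floor in WT cells alone.

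Other transcripts between the Hox genes were near or below the floor. Of 21 rows inside the 4 clusters that carry no Hox gene symbol of this kind, 0 were above the floor in KO and 2 in WT cells. No share over all transcript rows is set beside this count, so no lack of signal is read from it. The 2 rows were Gm11538 in the Hoxb cluster, at 442 in KO and 566 in WT cells, and an unnamed transcript of the Hoxd cluster on chromosome 2 from 74590740 to 74591797, at 498 in KO and 693 in WT cells. Hoxa11os, a non-coding RNA opposite Hoxa11, was below both floors in all 4 of its rows, the brightest reading 284 in KO and 357 in WT cells. Without a statement on strand, signal of such overlapping transcripts and of the Hox genes themselves cannot always be told apart.

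Other homeobox genes that blood cells are less known for, such as the Dlx, Lhx, Nkx and Irx families, were taken as a comparison. Of 53 measured, 6 were above a floor (11.3%), all 6 in KO and 1, Irx2, in WT cells, against 7 of 31 Hox genes (22.6%). These shares come from few genes and were not tested.

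Of 9 PBX and MEIS class cofactors, whose proteins bind DNA with HOX proteins, 6 were above a floor, where 44.9% of all genes were. Their median difference was -0.07, against -0.02 over all genes above a floor. Meis1, the partner of Hoxa9, read 1150 in KO and 1187 in WT cells, a difference of -0.05, and Pbx2 differed by -0.09. The rows of Meis1 ranged from -0.05 to 0.24 and those of Pbx2 from -0.09 to 0.41. Pknox1, a relative of Meis1, passed the floor in WT cells alone, at 469 in KO and 1482 in WT cells, and was at least 2.96-fold lower in KO cells. It was the 1 cofactor past 2-fold downward, where 4.06% of all genes above a floor were, and its rows ranged from -1.66 to 0.13. Pbx4 differed by -0.41, with rows from -0.41 to 1.01, and Meis2 by 0.35, with rows from -0.41 to 0.35.

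Of 19 activators of Hox genes, 13 were above a floor, against 44.9% of all genes. In KO cells 0 of the 13 were at least 2-fold higher and 2 at least 2-fold lower, where 5.54% and 4.06% of all genes above a floor were, and with rows averaged 0 passed 2-fold. The 2 genes were Psip1, which tethers KMT2A complexes to chromatin, 2.04-fold lower although its 4 rows ranged from -1.03 to -0.20, and Rbbp5, a core subunit of those complexes, 2.10-fold lower from its brighter row while the other row differed by 0.69. Kmt2a itself read 884 in KO and 913 in WT cells, a difference of -0.05. Men1, which binds it, differed by -0.16, while its other row differed by 0.24. Cdx4, an upstream regulator of Hox genes in the embryonic origin of blood, was below both floors at 127 in KO and 152 in WT cells. Cdx1, of the same family, was also below both, at 188 in KO and 33.2 in WT cells.

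Of 19 Polycomb genes, 14 were above a floor, against 44.9% of all genes, with a median difference of 0.15. In KO cells 0 of the 14 were at least 2-fold higher, where 5.54% of all genes above a floor were. At least 2-fold lower were 0 of them, where 4.06% of all were. Counts of 0 among 14 genes are close to these background shares. Ezh2, the methyltransferase of Polycomb complex 2, differed by -0.45, while its other row differed by 0.17. Bmi1, needed for stem cell self-renewal, passed the floor in KO cells alone, at 721 in KO and 459 in WT cells, and was at least 1.31-fold higher in KO cells, though its 3 rows ranged from -0.49 to 0.65. Of 5 genes reported to act downstream of HOXA9 and MEIS1, all 5 were above a floor, where 44.9% of all genes were. Of these, 0 reached 2-fold in either direction, a count close to the same background shares. Myb read 17452 in KO and 23902 in WT cells.

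Of 13 measured genes that flank the clusters, 8 were above a floor, against 44.9% of all genes. Of these, 2 were at least 2-fold higher in KO cells, where 5.54% of all genes above a floor were, and both lie beside the Hoxa cluster. Snx10, a sorting nexin gene, read 8680 in KO and 793 in WT cells, a difference of 3.45 on the log2 scale, and its other row differed by 3.03. Skap2, an adaptor gene of immune cells that lies between Snx10 and the Hoxa cluster, read 23240 in KO and 10570 in WT cells, 2.20-fold higher. Along the same chromosome, Hoxa2 differed by -0.25, and Hibadh, past the other end of the cluster, was at least 1.37-fold higher in KO cells. The monocyte and neutrophil markers above a floor had median differences of 0.56 and 0.32. Of the monocyte markers 8 were higher and 2 lower in KO cells, and of the neutrophil markers 9 and 1. The part of such cells in the values of Snx10 and Skap2 was not tested.

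**Figure D4:**
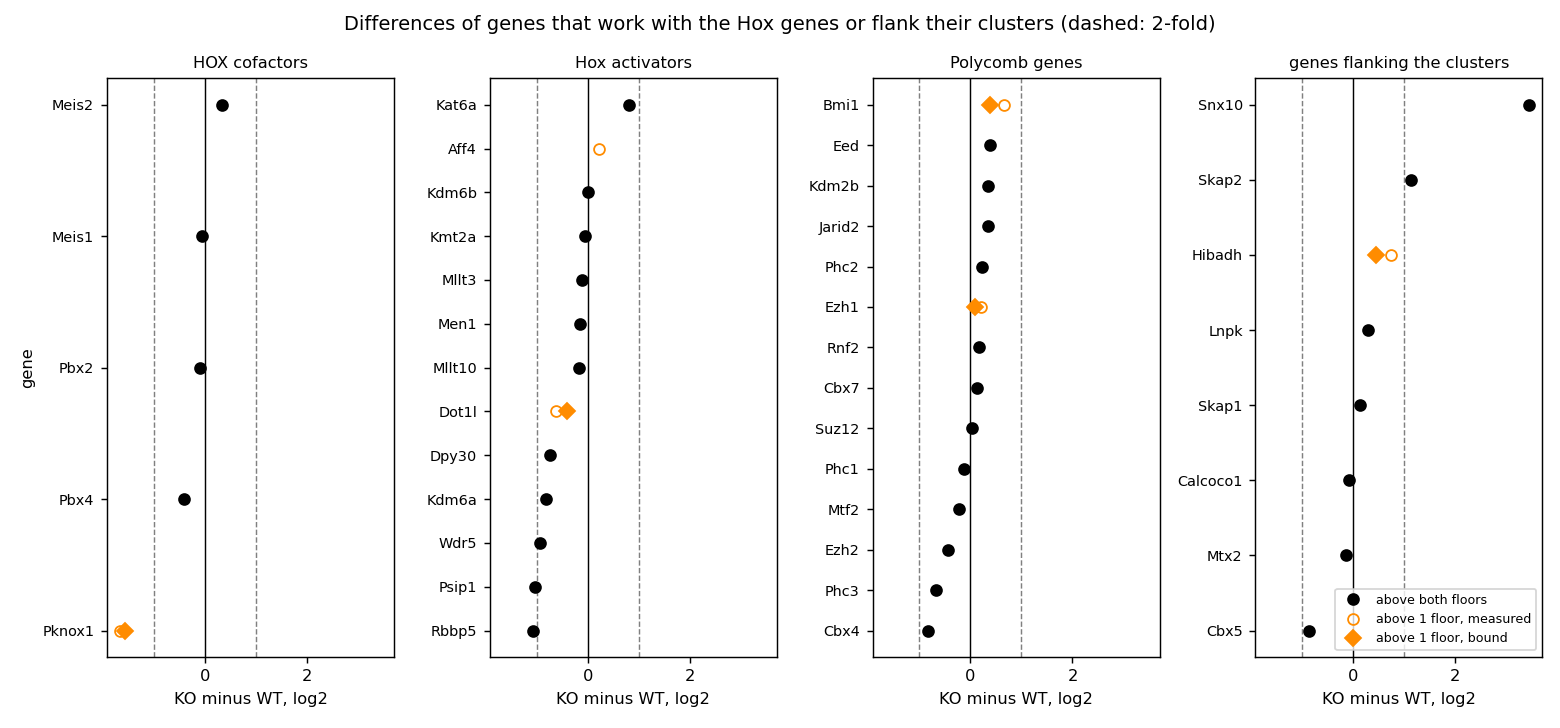
Difference KO minus WT on the log2 scale (horizontal axis) of genes above a floor (vertical axis) from 4 lists: PBX and MEIS class cofactors, activators of Hox genes, Polycomb genes and genes that flank the clusters. Black points are genes above both floors, and genes above 1 floor have their measured difference as an open orange circle and their bound, where there is one, as an orange diamond. The dashed lines mark 2-fold, which Snx10 and Skap2 pass upward and Pknox1, Psip1 and Rbbp5 downward.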

How the data were processed

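Expression was measured on 2 single-colour (Cy3) NimbleGen arrays, 1 of KO and 1 of WT LT-HSCs, grouped by the genotype in the labels. Per the labels' protocols, RNA was extracted with TRIZOL and oligo dT primed the cDNA. The deposited values are linear intensities that summarise the probes of each transcript row by RMA, per the submitters' processing notes. RMA as generally defined equalises the arrays' distributions, so differences are relative to the other genes. The sources used here give neither its version nor the arrays it was run on. Per the file headers, transcripts are placed on MM9, and whether positions count from 0 or 1 is not stated. Of 44170 rows, 44155 hold 3 probes.

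Intensities were put on the log2 scale without further normalization (Python 3.11.15, pandas 2.3.3). Of 41886 rows with a gene, 39057 had their ID in the RefSeq table, used for symbols. Array medians were 271 in KO and 273 in WT cells, and the highest log2 values 15.84 and 15.89. A gene above 1 floor is given as a bound, the bright value over the other array's floor. A gene counts as 2-fold different from a log2 difference or bound of 1. No test was possible with 1 array per group, and precision is limited by the number of arrays. The counting was tested on simulated data. All Hox genes are named, and from the other lists cofactors above the floor, Kmt2a, Men1, Bmi1, Ezh2, Cdx4 and members past 2-fold, except for some items that are not reported here. Pknox1, Psip1, Rbbp5, Snx10 and Skap2 come in by that last part. Cdx1 comes in by its measured difference alone, as it was below both floors and does not count as 2-fold different. Hibadh, Myb, Irx2, Gm11538 and Hoxa11os were picked with their values in view. The alternatives tried were other floors, averaged rows, loess centring (span 0.3, statsmodels 0.14.6), other folds and the series-wide table. Members and lists were chosen with earlier results of these data known.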

Additional observations from a re-analysis of the deposited data

How the results depend on the processing

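The call of a Hox gene as above background depended on the floor. With the floor at the 99th percentile of receptor rows (1106 in KO and 1166 in WT), 2 genes were above it on either array in place of 7, Hoxd10 and Hoxa9, with 1 in KO and 2 in WT in place of 6 each. At the 90th percentile, an alternative chosen after seeing the data, 10 were above it on either array, and at the median of all rows also 10. With rows averaged, 5 genes were left, Hoxd10 and Hoxa7 dropping out, and the Hoxa7 difference became -0.41. Requiring every row of a gene above the floor, also added after seeing the data, left 5. In both cases the 5 were Hoxa2, Hoxa4, Hoxa5, Hoxa9 and Hoxb4, which have 1 row each. Neither alternative could therefore remove them, and neither is a check on them. The number of Hox genes at least 2-fold higher in KO was 1 (Hoxb4) when the floor was that median and 2 with no floor, and the number at least 2-fold lower was 2 with no floor and 1 at 1.5-fold, in place of 0 each. Cofactors past 2-fold, 1 as reported, numbered 0 at the 99th percentile floor, 0 with rows averaged, 2 at 1.5-fold and 0 at 3-fold. Activators, 2 as reported, numbered 0 with rows averaged, 1 after loess centring, 6 at 1.5-fold and 0 at 3-fold. Polycomb genes, 0 as reported, numbered 2 at 1.5-fold. The median difference of Hox genes ran from -0.48 to -0.25, but their mean was 0.02, with Hoxb4 in it. Under the alternatives run, the other counts stayed within 1.5 times, the differences of the 7 Hox genes above a floor kept their sign, and the series-wide table gave the same counts. The causes of these changes were not tested beyond the construction of each alternative. No paired analysis was possible because each group has 1 array. Signal near the floor limits what can be said of Hoxa4, Hoxa5, Hoxa7, Hoxb4 and Hoxb5. Of the receptor rows, 52 were above the KO floor and 52 above the WT floor, with 40 above both. Some receptor rows thus also passed on 1 array alone, as Hoxb4 and Hoxa7 did.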

Other observations

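Genes of other homeobox families above a floor were Irx2, at 1162 in KO and 930 in WT cells, and, in KO cells alone, Irx1 (628 in KO and 480 in WT), Dlx1 (566 and 522), Nkx1-1 (562 and 150), Six3 (539 and 544) and Nkx2-1 (513 and 544). Six3 and Nkx2-1 passed in KO cells with the lower value of the pair, since the KO floor is lower. These genes were chosen after their values were seen.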
